A study of Mus musculus with 11 samples.

Results

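NRF2, encoded by Nfe2l2, is the transcription factor that switches on genes against oxidative and electrophilic stress. Its partner Keap1 is the adaptor of a ubiquitin ligase that keeps NRF2 short-lived; when reactive compounds modify Keap1, NRF2 builds up, pairs with small Maf proteins and binds the antioxidant response element of its target genes. Among these targets are enzymes that make glutathione (Gclc and Gclm), enzymes of the thioredoxin system (Txnrd1, Srxn1 and Prdx1), the quinone reductase Nqo1 and the haem oxygenase Hmox1. Because NRF2 is controlled mainly through protein stability, the level of its own mRNA is not a reading of its activity.

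The 9 genes Nfe2l2, Keap1, Nqo1, Hmox1, Gclc, Gclm, Srxn1, Txnrd1 and Prdx1 were taken as the members, and every probe set whose platform annotation gave exactly 1 symbol, that of a member, was used. This found 17 of 45101 probe sets, covering 8 of the 9 genes and 8 of the 18193 genes that the arrays name singly: 4 for Srxn1, 3 for Txnrd1, 2 each for Nfe2l2, Keap1, Gclc and Gclm, and 1 each for Nqo1 and Hmox1. Prdx1, a peroxiredoxin, had 0, since its 5 probe sets are also annotated to a second gene, and it was not analysed here.

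The cells were 3T3-L1 adipocytes, an established mouse line differentiated from preadipocytes in culture, profiled on 11 Affymetrix arrays. All groups were differentiated the same way and processed at the same day after differentiation. The groups were untreated control (n = 3), CI, given 10 nM insulin in 4 additions over a day and the next morning (n = 2), TNF, exposed for 4 days to TNF-alpha at 2 ng/ml (n = 3), and DEX, kept in 20 nM dexamethasone for 8 days (n = 3). The labels name a 0.01% ethanol carrier as the control for dexamethasone but list the control arrays as having no treatment, so whether those cells had the carrier is not known. The 3 treatments are given as models of insulin resistance. TNF is an inflammatory cytokine and dexamethasone a synthetic glucocorticoid.

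The array medians were 124 to 129 on the linear intensity scale; precision is limited by how few arrays there are. Separate cultures are not stated for the replicates. The p-values therefore take in only the spread among these arrays, and that spread may be technical. Fabp4, a fatty acid binding protein that marks adipocytes, was at 22633 ± 389.7 (SD, n = 3) in control. The summed intensity of the 8 adipocyte markers tested was 102561 to 104109 in control, 102773 to 105098 in CI, 88029 to 90381 in TNF and 95259 to 101932 in DEX. That of the 8 preadipocyte and fibroblast markers tested was 39785 to 45589 in control, 34838 to 36054 in CI, 48261 to 51049 in TNF and 32459 to 37064 in DEX, and that of the 7 macrophage and leukocyte markers tested was 4291 to 4467, 3593 to 3866, 5599 to 6062 and 3091 to 3592. The sums hide markers that moved in opposite ways. By the test described below, 1 adipocyte marker rose and 0 fell in CI, 0 and 4 in TNF, and 1 and 4 in DEX. The CI increase was that of Cidec, and it held in 8 of the 20 alternatives described at the end. For preadipocyte and fibroblast markers the counts that rose and fell were 0 and 5, 4 and 0, and 2 and 4. With the mean of all probe sets the TNF counts were 5 and 2. For macrophage and leukocyte markers the counts were 1 and 2, 2 and 0, and 1 and 2, and those in TNF were 3 and 1 without control replicate 3. Of all genes 17.3% passed in CI, 25.2% in TNF and 27.6% in DEX. Ptprc, Itgam and Aif1, which define leukocytes and macrophages, lay under the limit for testing, with means of 24.9, 49.4 and 42.6. Cd34, a preadipocyte marker, also lay under it, at 47.9. Plin1, Cfd and Ly6a had 0 probe sets annotated to 1 symbol and were not measured here. The part of the marker shifts in the results was not tested. In bulk RNA, fewer cells of a type and less RNA per cell cannot be told apart.

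Each gene was tested on its brightest probe set with limma, as log2(intensity + 16), over 15622 genes and with all 4 groups in 1 fit. Passing meant an adjusted p (Benjamini-Hochberg) under 0.05. Log2 fold changes below are differences on this scale and carry the standard error of the fit. Intensities are levels and carry the SD between arrays.

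**Figure D1:**
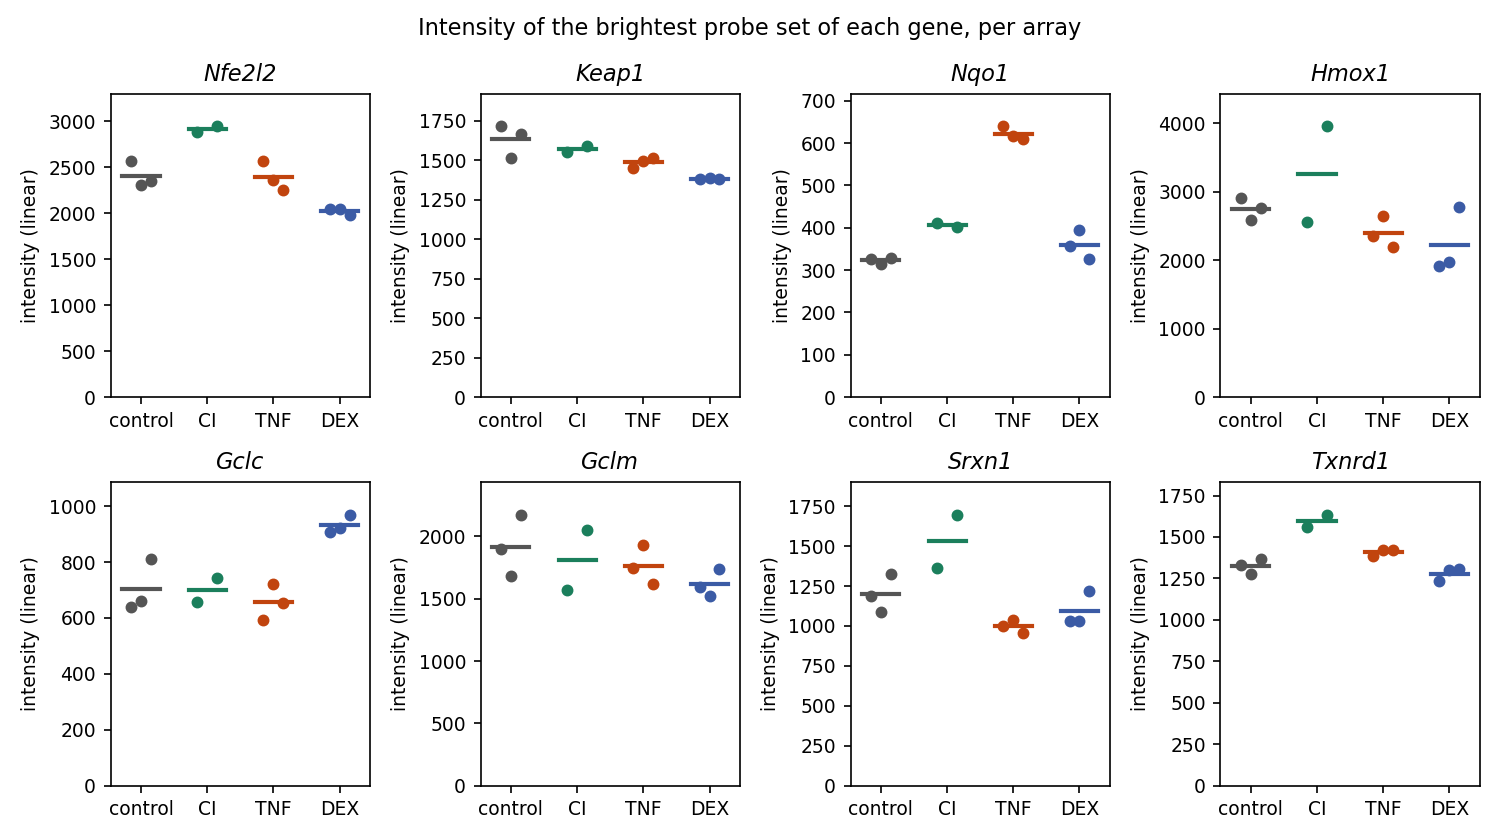
Linear intensity (vertical axis, from 0) of the brightest probe set of the 8 genes on each of the 11 arrays, by group; points are arrays and bars are group means. Nqo1 lies at 609 to 640.0 on the TNF arrays and at 315 to 410.3 elsewhere, and Gclc lies at 907 to 970.0 on the DEX arrays and at 594 to 809.7 elsewhere.

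The regulators Nfe2l2 and Keap1 differed from control by at most 1.21-fold in any treatment. Nfe2l2 was at 2570.1, 2311 and 2348 in control, 2888 and 2948 in CI, 2564, 2362 and 2257 in TNF, and 2041, 2051 and 1979 in DEX. Both CI arrays lay above all other arrays and all DEX arrays lay below all others, while control and TNF overlapped. Against control the log2 fold change was 0.28 (SE 0.0671, limma adjusted p = 0.0105) in CI and -0.25 (SE 0.0600, adjusted p = 0.00578) in DEX. In TNF it was -0.01 (95% interval -0.14 to 0.12, adjusted p = 0.927), which does not show that the levels were equal. The order of the means was thus CI, then control and TNF without a detected difference, then DEX.

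The CI increase of Nfe2l2 rests on 1 of its 2 probe sets. The dimmer one, at 124 to 173 in control and at 119.6 and 113 in CI, gave -0.27 (SE 0.166), and the mean of both gave 0.00 (limma adjusted p = 0.994). Without CI replicate 1 or CI replicate 2 the adjusted p was 0.0545 or 0.0709 (0.00645 to 0.994 over all alternatives). For DEX the 2 probe sets gave -0.25 and -0.24. The dimmer one did not pass (SE 0.148, limma adjusted p = 0.279 over all probe sets). It was at 137, 143 and 85.0 in DEX replicates 1, 2 and 3, and DEX overlapped control. The mean of both, at -0.25, had an adjusted p of 0.0777 (0.00358 to 0.0777 over all alternatives).

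Keap1 was at 1716, 1516 and 1666 in control, 1549 and 1591 in CI, 1453, 1493 and 1510.5 in TNF, and 1381, 1384 and 1382 in DEX. The DEX arrays were lower than all others and close to each other. In DEX it fell by 0.24 on the log2 scale (SE 0.0548, limma adjusted p = 0.00453), its second probe set fell by 0.23, and the call held in all 20 alternatives. TNF was below control on every array, but -0.13 did not pass (adjusted p = 0.0908); it passed without control replicate 2 (0.0345) and after quantile normalization (0.0191; 0.0191 to 0.256 over all alternatives). CI overlapped control (-0.05, adjusted p = 0.627). In DEX, then, the mRNAs of the factor and of its inhibitor were both lower.

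Glutathione is made in 2 steps, and Gclc and Gclm encode the catalytic and the modifier subunit of the enzyme of the first, rate-limiting one. Gclc was at 640.1, 661 and 809.7 in control, 657 and 743 in CI, 594, 723 and 652 in TNF, and 907, 921 and 970.0 in DEX. DEX stood above all other arrays, and the other 3 groups overlapped. In DEX it rose by 0.41 (SE 0.0880, limma adjusted p = 0.00272), and its second probe set rose from 351 ± 6.53 (SD, n = 3) to 488 ± 19.8 (SD, n = 3), by 0.46 (SE 0.0534). The DEX call held in all 20 alternatives. Neither CI (-0.00, 95% interval -0.21 to 0.21) nor TNF (-0.09, -0.28 to 0.09) passed.

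Gclm, the modifier subunit, did not pass in any of the 6 comparisons between groups. It was at 1896, 1682 and 2175 in control, 1572 and 2047 in CI, 1745, 1932 and 1621 in TNF, and 1594, 1521 and 1742 in DEX, so all groups overlapped. In DEX, where the catalytic subunit rose, its log2 fold change was -0.24 (95% interval -0.46 to -0.01, limma adjusted p = 0.108); without control replicate 2 it passed at 0.0466 (0.0466 to 0.370 over all alternatives). The second Gclm probe set was at -0.01 in DEX. Whether the 2 subunits differed in their response was not tested.

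In the thioredoxin system, Txnrd1 reduces thioredoxin at the expense of NADPH, and Srxn1, sulfiredoxin, repairs peroxiredoxins that were over-oxidised. Srxn1 was at 1187, 1090.3 and 1323 in control, 1363 and 1698 in CI, 998, 1035 and 958 in TNF, and 1029.7, 1028 and 1218 in DEX. CI lay above every other array and TNF below every control array, while DEX overlapped both control and TNF. It rose by 0.34 (SE 0.101, limma adjusted p = 0.0291) in CI and fell by 0.26 (SE 0.0901, adjusted p = 0.0475) in TNF; DEX was at -0.13 (adjusted p = 0.302).

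Both Srxn1 calls against control were close to the threshold. In CI the adjusted p was 0.0731 without control replicate 1, 0.117 without control replicate 2 and 0.346 without CI replicate 2, which lowered the fold change to 0.19 (0.0133 to 0.346 over all alternatives). In TNF it did not pass in 9 of 20 alternatives: with a pseudocount of 1 (0.0533), no dim filter (0.0550), median centring (0.0675), or without control replicate 1 (0.0850), control replicate 3 (0.190), TNF replicate 1 (0.102), TNF replicate 2 (0.0697), TNF replicate 3 (0.129) or DEX replicate 1 (0.0516). The difference between TNF and CI was larger: -0.60 (SE 0.101, limma adjusted p = 0.000259), as was that between DEX and CI (-0.48, adjusted p = 0.00159), and both held in all 20 alternatives. Of the 4 Srxn1 probe sets, 3 gave 0.30 to 0.36 in CI and -0.30 to -0.26 in TNF, and the fourth gave 0.05 and -0.08.

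Txnrd1 was at 1330.3, 1275 and 1368 in control, 1561 and 1635 in CI, 1387, 1424 and 1424 in TNF, and 1232, 1302 and 1304 in DEX. CI was the highest group, and TNF lay between CI and control with no overlap. The increase in CI was 0.27 (SE 0.0580, limma adjusted p = 0.00505); TNF, at 0.09 (adjusted p = 0.218), and DEX, at -0.05 (adjusted p = 0.534), did not pass. Without CI replicate 2 the CI increase had an adjusted p of 0.0554, and as the mean of all 3 probe sets it was 0.12 (adjusted p = 0.214; 0.00228 to 0.214 over all alternatives). The other 2 probe sets were dimmer, at 233 ± 23.6 and 58.5 ± 3.49 (SD, n = 3) in control, and gave 0.13 and -0.03.

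Nqo1, which reduces quinones by 2 electrons so that they do not form radicals, had the largest change of all members. It was at 327, 315 and 329 in control, 410.3 and 402 in CI, 640.0, 616 and 609 in TNF, and 357, 395 and 327 in DEX. TNF stood far above the rest and CI above control and DEX, while DEX overlapped control. From 324 ± 7.59 (SD, n = 3) in control it rose to 622 ± 16.1 (SD, n = 3) in TNF, by 0.91 on the log2 scale (SE 0.0627, limma adjusted p = 9.01e-08), and to 406 ± 6.08 (SD, n = 2) in CI, by 0.31 (SE 0.0701, adjusted p = 0.00631). TNF was higher than CI by 0.60 (adjusted p = 9.78e-06) and than DEX by 0.77 (adjusted p = 1.64e-07), and each of these 3 TNF differences held in all 20 alternatives. The CI increase had an adjusted p of 0.0588 without CI replicate 1 (0.00189 to 0.0588 over all alternatives). DEX, at 0.14 (adjusted p = 0.110), passed without DEX replicate 3 (0.0242; 0.0242 to 0.392 over all alternatives). Nqo1 has a single probe set here, so no second one could be set beside it.

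Hmox1, which opens the haem ring and releases iron, carbon monoxide and biliverdin, had the largest standard errors of all members. It was at 2910.2, 2582 and 2768 in control, 2558 and 3957 in CI, 2354, 2638 and 2187 in TNF, and 1912, 1967 and 2769 in DEX. CI replicate 2 and DEX replicate 3 stood apart from the other arrays of their groups, and all groups overlapped with control. No treatment passed against control: the log2 fold change was 0.21 (SE 0.164) in CI, -0.20 (SE 0.146) in TNF and -0.33 (SE 0.146) in DEX, with limma adjusted p-values of 0.449, 0.335 and 0.111. Without CI replicate 2 the CI value turned to -0.10. Without DEX replicate 3 the DEX value was -0.50 and passed (adjusted p = 0.0136), and it also passed without CI replicate 1 (0.0493) or CI replicate 2 (0.0494; 0.0136 to 0.325 over all alternatives). The 3'/5' signal ratio of the actin control probe sets, which reflects RNA integrity, was 1.82 in CI replicate 1 and 1.43 in CI replicate 2. It was 1.49 to 1.73 in DEX, highest in DEX replicate 2, 1.49 to 1.58 in control and 1.44 to 1.69 in TNF. The same ratio for Gapdh was 1.07 and 1.08 in CI replicates 1 and 2, and 1.04 to 1.11 over all arrays. The part of either ratio in the values of Hmox1 or of the other members was not tested.

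**Figure D2:**
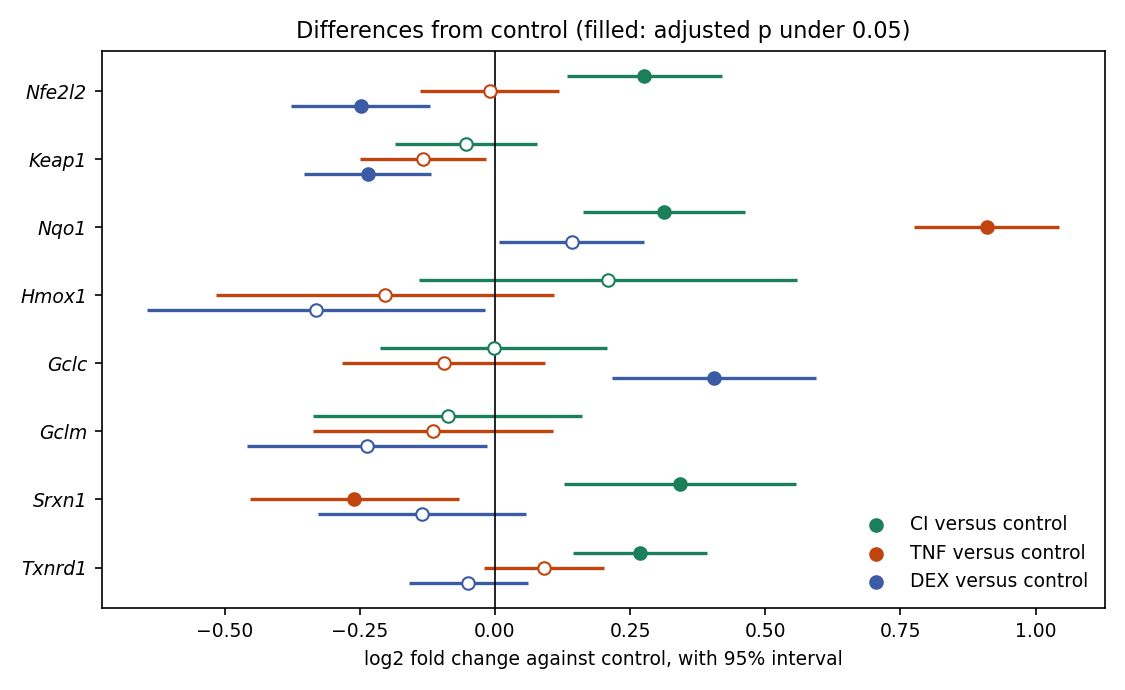
Log2 fold change against control (horizontal axis) of the 8 genes in CI, TNF and DEX, with 95% intervals of the fit; filled points passed at an adjusted p under 0.05. The point farthest from 0 is Nqo1 in TNF (0.91), and the 4 filled CI points (0.27 to 0.34) all lie above 0.

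Both members that passed in TNF, Nqo1 and Srxn1, also passed in CI, Srxn1 in the opposite direction, and Nfe2l2 passed in CI and in DEX in opposite directions. In CI, 4 of 8 genes rose and 0 fell, where 17.3% of all genes tested passed, 8.38% as increases and 8.88% as decreases; they were Nfe2l2, Nqo1, Srxn1 and Txnrd1. The median log2 fold change of the 8 was 0.24, against 0.01 over all genes. The count was 2 without CI replicate 1, 1 without CI replicate 2, and 2 when a gene's probe sets were averaged. In TNF, 1 rose (Nqo1) and 1 fell (Srxn1), where 25.2% of all genes passed (13.9% higher, 11.3% lower), with a median of -0.10 against -0.01. In DEX, 1 rose (Gclc) and 2 fell (Nfe2l2 and Keap1), where 27.6% passed (14% higher, 13.6% lower), with a median of -0.18 against 0.02. The TNF and DEX shares lie near the background. Without DEX replicate 3 the DEX count was 5, with Nqo1 and Hmox1 added, and the TNF count was 1 wherever Srxn1 did not pass. The 3 comparisons share the control arrays. Every array of the treatment lay beyond every control array for 4 of 8 genes in CI, 4 in TNF and 3 in DEX, where this held for 46%, 43.1% and 40.5% of all genes.

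The differences between treatments were tested directly. TNF was higher than CI for Nqo1 and lower for Nfe2l2 (-0.29), Srxn1 and Txnrd1 (-0.18), 4 of 8 where 36.2% of all genes passed (18.9% higher, 17.3% lower). The Txnrd1 difference did not pass with median centring (limma adjusted p = 0.0701), the mean of all probe sets (0.359), or without CI replicate 1 (0.0503), CI replicate 2 (0.180), TNF replicate 1 (0.0757) or TNF replicate 2 (0.0509), and that of Nfe2l2 did not with the mean of all probe sets (0.451). Hmox1, at -0.41 (adjusted p = 0.0617), passed without CI replicate 1 (0.00483) or DEX replicate 3 (0.0272) and with the replicate number as a block (0.0465; 0.00483 to 0.706 over all alternatives).

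DEX was lower than CI for Nfe2l2 (-0.52, SE 0.0671, limma adjusted p = 1.81e-05), Keap1 (-0.18), Hmox1 (-0.54), Srxn1 (-0.48) and Txnrd1 (-0.32), and higher for Gclc (0.41). These were 6 of 8 genes, where 34% of all genes passed (17.1% higher, 16.9% lower). Hmox1 did not pass without CI replicate 2 (adjusted p = 0.371), DEX replicate 1 (0.0718) or DEX replicate 2 (0.0640), Gclc did not without CI replicate 1 (0.0737), and with the mean of all probe sets neither Nfe2l2 (0.0997) nor Txnrd1 (0.0865) passed. Keap1 did not pass without any single CI or DEX array (0.0507 to 0.160) or with only these groups in the fit (0.0583). Nqo1, at -0.17 (adjusted p = 0.0741), passed after quantile normalization (0.0492) and without DEX replicate 2 (0.00866; 0.00866 to 0.262 over all alternatives).

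TNF was higher than DEX for Nfe2l2 (0.24), Nqo1 and Txnrd1 (0.14) and lower for Gclc (-0.50, SE 0.0880, limma adjusted p = 0.000407), 4 of 8 where 36.1% passed (18.2% higher, 18% lower). The Txnrd1 call (adjusted p = 0.0469) held in 4 of 20 alternatives, and without any 1 of the 11 arrays it did not pass (0.0513 to 0.151). Nfe2l2 did not pass with the mean of its probe sets (0.278). Nqo1 and Gclc held in all 20.

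**Figure D3:**
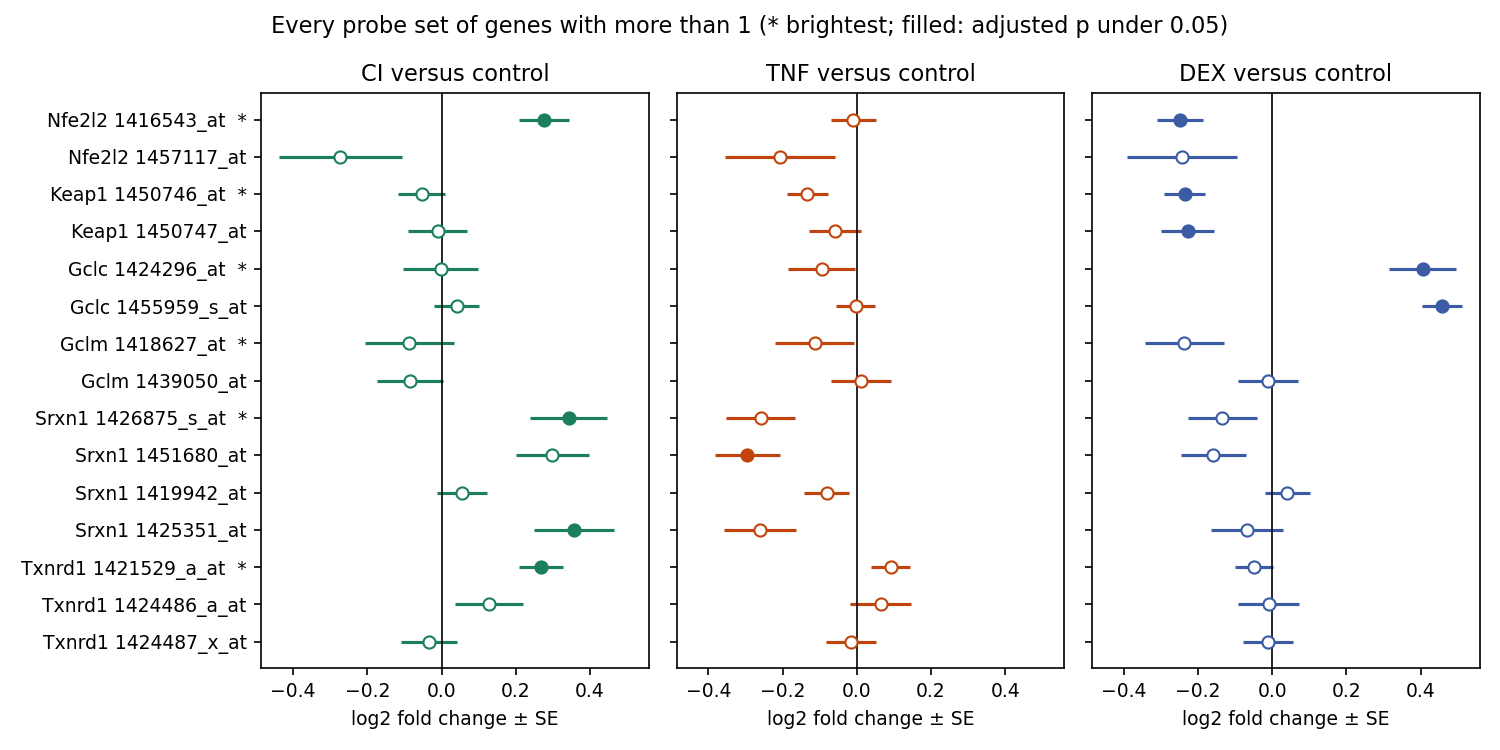
Log2 fold change against control (horizontal axes, with standard errors) of all 15 probe sets of the 6 genes that have more than 1, in CI, TNF and DEX; filled points passed in a fit over all probe sets, and a star marks the brightest. Both Gclc and both Keap1 probe sets are filled in DEX, while the 2 of Nfe2l2 lie on opposite sides of 0 in CI (0.28 and -0.27).

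Tested one by one over 33778 probe sets, 5 of the 17 probe sets rose in CI and 0 fell, where 12.9% of all probe sets passed. In TNF 1 rose and 1 fell (19% passed) and in DEX 2 rose and 3 fell (22.2% passed). In this fit the brightest Srxn1 probe set did not pass in TNF (limma adjusted p = 0.0674), and the second did (-0.30, adjusted p = 0.0314).

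The promoters of the 4 genes that rose in CI are shown to let their sequence be compared. They run from 250 bases before to 50 after the start of transcription on build GRCm38.p6, from RefSeq. Capitals mark matches on either strand to the core of the antioxidant response element, TGACNNNGC or TGAGNNNGC, or to the AP-1 site TGANTCA, which can overlap the core. The table used holds a promoter for 7 of the 9 genes, and for Hmox1 and Gclc none was used here. Nfe2l2 lies on the minus strand at chr2:75704614-75704913, Nqo1 on the minus strand at chr8:107403156-107403455, Srxn1 on the plus strand at chr2:152105274-152105573, and the second of 3 Txnrd1 promoters on the plus strand at chr10:82858956-82859255.
Nfe2l2: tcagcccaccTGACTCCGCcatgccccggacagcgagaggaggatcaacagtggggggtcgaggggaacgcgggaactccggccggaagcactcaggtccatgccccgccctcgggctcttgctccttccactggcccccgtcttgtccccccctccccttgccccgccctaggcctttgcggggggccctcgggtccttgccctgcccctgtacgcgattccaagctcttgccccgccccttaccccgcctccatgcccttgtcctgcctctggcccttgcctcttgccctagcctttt
Nqo1: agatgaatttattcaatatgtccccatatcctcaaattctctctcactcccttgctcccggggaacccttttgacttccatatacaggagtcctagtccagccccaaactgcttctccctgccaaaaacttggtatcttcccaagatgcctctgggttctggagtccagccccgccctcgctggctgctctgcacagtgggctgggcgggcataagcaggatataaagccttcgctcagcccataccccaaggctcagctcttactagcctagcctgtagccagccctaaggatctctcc
Srxn1: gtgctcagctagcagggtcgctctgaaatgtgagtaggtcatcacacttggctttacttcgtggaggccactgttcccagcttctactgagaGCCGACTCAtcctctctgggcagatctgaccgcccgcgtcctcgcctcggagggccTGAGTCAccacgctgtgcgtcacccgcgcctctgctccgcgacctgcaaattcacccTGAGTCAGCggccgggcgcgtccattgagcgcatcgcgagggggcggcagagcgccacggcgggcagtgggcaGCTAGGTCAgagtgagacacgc
Txnrd1: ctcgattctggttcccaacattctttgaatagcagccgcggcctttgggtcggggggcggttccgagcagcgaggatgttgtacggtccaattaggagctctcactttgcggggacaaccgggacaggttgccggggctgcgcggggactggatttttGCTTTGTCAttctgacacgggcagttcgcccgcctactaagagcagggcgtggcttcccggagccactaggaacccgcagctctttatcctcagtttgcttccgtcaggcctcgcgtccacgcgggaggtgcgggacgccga

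The Srxn1 promoter held 3 matches to the core and 2 AP-1 sites; 1 of the AP-1 sites is part of the core match TGAGTCAGC, which begins 45 bases before the start. Nfe2l2 held 1 core match, 240 bases before the start, and the second Txnrd1 promoter held 1, while the Nqo1 window and the other Txnrd1 windows held 0. Of the members whose promoters are not printed, Gclm held 1 core match, Keap1 held 0, and Prdx1, whose expression was not analysed, held 2 and 2 AP-1 sites. Of all 32851 promoters of this length 27.8% held either form of the core and 7.81% an AP-1 site. Counted by gene, 30.8% of 27025 genes had a promoter with either form of the core and 8.97% one with an AP-1 site. The Txnrd1 promoter printed above was the only 1 of its 3 that held a match. A match is a description of the letters and not of a bound site, and elements farther away lie outside these windows.

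Other genes of the same systems are given by lists, with the share of all genes that passed and the list's median log2 fold change. Over all genes tested that median was 0.01 in CI, -0.01 in TNF and 0.02 in DEX. Among 15 regulators and partners of NRF2, 3 rose and 1 fell in CI (17.3% of all genes passed), 2 rose and 1 fell in TNF (25.2%), and 2 rose and 2 fell in DEX (27.6%). The medians were 0.08, 0.05 and 0.00, and the counts lie near the shares over all genes. Bach1, a repressor that competes with NRF2 at the antioxidant response element, fell by 0.47 in CI, from 971 ± 50.8 (SD, n = 3) to 695 ± 6.40 (SD, n = 2), and rose by 0.44 in TNF to 1327 ± 65.6 (SD, n = 3). Mafg, a small Maf partner, rose by 0.41 in CI. Maff, another small Maf, rose in CI (0.23), TNF (0.51) and DEX (0.54), and Mafk rose in DEX (0.33). In CI Maff held its call in 13 of 20 alternatives; it did not pass with median centring (limma adjusted p = 0.0529), with the replicate block (0.0727), or without any single control or CI array (0.0629 to 0.272; 0.0133 to 0.272 over all alternatives). Syvn1, an endoplasmic reticulum ubiquitin ligase, rose in CI (0.29) and fell in TNF (-0.32) and DEX (-0.18), and Gsk3b, a kinase that marks NRF2 for degradation, fell in DEX (-0.40). With the mean of all probe sets Syvn1 did not pass in CI (limma adjusted p = 0.143; 0.00122 to 0.143 over all alternatives) or DEX (0.0525), nor in DEX without DEX replicate 3 (0.0600; 0.00714 to 0.0600 over all alternatives).

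In a list drawn up for NADPH supply and detoxification, the genes that passed were mostly increases in CI and mostly decreases in TNF. The list also takes in related genes that do not carry out these steps, among them Osgin1. Of 15 listed, 13 were tested, while G6pdx and Aldh3a1 were not. In CI 6 rose and 0 fell (17.3% of all genes passed, 8.38% as increases). In TNF 1 rose and 8 fell (25.2% of all genes, 11.3% as decreases). In DEX 1 rose and 4 fell (27.6%, 13.6% as decreases). The median log2 fold changes of the 13 were 0.23, -0.23 and -0.07. Pgd, an enzyme of the pentose phosphate pathway, rose in CI from 3875 ± 207 (SD, n = 3) to 5890.3 ± 512 (SD, n = 2), by 0.60 (SE 0.0826). The carbonyl reductase Cbr3 (0.57) and the aldo-keto reductase Akr1b8 (0.44) rose as well, and so did Osgin1 (0.33), which did not pass without control replicate 1 (limma adjusted p = 0.0689) or CI replicate 2 (0.203; 0.00830 to 0.203 over all alternatives). In TNF Me1, the malic enzyme, fell by 0.75, Taldo1, transaldolase, by 0.62, and Osgin1 by 0.60, while Ugdh rose by 0.32. In DEX Me1 (-0.68), Nqo2 (-0.51) and Cbr3 (-0.39) fell. The DEX count was 3 and not 5 without control replicate 1, control replicate 2 or DEX replicate 1.

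Among 22 genes of glutathione synthesis and use, 5 rose and 2 fell in CI (17.3% of all genes passed), 3 rose and 4 fell in TNF (25.2%), and 6 rose and 4 fell in DEX (27.6%). The medians were 0.05, -0.03 and -0.02. In CI Cth, which makes cysteine, rose by 1.29, Ggct, which breaks down gamma-glutamyl peptides, rose by 0.73, and the glutathione peroxidase Gpx1 fell by 0.68. Gpx1 rose in TNF (0.35) and in DEX (0.75), where it went from 4099 ± 193 (SD, n = 3) to 6901 ± 76.1 (SD, n = 3), and Gpx8 fell in DEX (-0.82). The CI count was 4 without either CI replicate, and the TNF count 4 without control replicate 3 or TNF replicate 2.

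Of 17 glutathione S-transferases, 0 rose and 4 fell in CI (17.3% of all genes passed), 1 rose and 6 fell in TNF (25.2%), and 3 rose and 7 fell in DEX (27.6%). Decreases made up 8.88%, 11.3% and 13.6% of all genes in turn, and the list's medians were -0.07, -0.14 and -0.05. Several are close paralogs whose probe sets may cross-hybridise. Gsta3 rose in DEX from 59.3 ± 9.36 (SD, n = 3) to 730.1 ± 73.2 (SD, n = 3), by 3.31 on the log2 scale, while Gstt3 (-1.06), Gstt1 (-0.95) and Gstz1 (-0.71) fell. In TNF Gstz1 fell by 0.93 and Gstt1 rose by 0.55. The 4 CI decreases were 2 without control replicate 1 and 0 without CI replicate 2.

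Of 13 thioredoxins, peroxiredoxins and methionine sulfoxide reductases listed, 11 were tested. Prdx5 and Prdx6 had no probe set annotated to 1 symbol. In CI 1 rose and 3 fell (17.3% of all genes passed). In TNF 1 rose and 4 fell (25.2%), and in DEX 2 rose and 3 fell (27.6%). The medians were 0.03, -0.14 and -0.10. Txn2, the mitochondrial thioredoxin, rose in CI (0.36), Prdx3, the mitochondrial peroxiredoxin, fell in TNF (-0.53), and Prdx4 fell in DEX (-0.42). The CI count was 1 without control replicate 2 and 2, both of them increases, without CI replicate 2, and the DEX count was 3 without control replicate 1, control replicate 2 or DEX replicate 1.

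Of 11 genes of haem and iron handling listed, 10 were tested, while Ftl1 had no probe set annotated to 1 symbol. In CI 2 rose and 3 fell (17.3% of all genes passed). In TNF 1 rose and 4 fell (25.2%), and in DEX 2 rose and 3 fell (27.6%). The medians were -0.03, -0.09 and -0.03. Tfrc, the transferrin receptor, fell in CI (-0.56), TNF (-0.68) and DEX (-0.57). Hpx, the haem-binding plasma protein hemopexin, rose by 3.49 in TNF. Alas1, the first enzyme of haem synthesis, fell in TNF (-0.42) and rose in DEX (0.54), and Blvra, the biliverdin reductase that acts after Hmox1, rose in CI (0.46). The CI count was 3 without CI replicate 1 and 2 without CI replicate 2.

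Of 7 genes of superoxide, catalase and metallothionein, 0 rose and 2 fell in CI (17.3% of all genes passed), 3 rose and 1 fell in TNF (25.2%), and 3 rose and 1 fell in DEX (27.6%). The medians were -0.13, 0.18 and 0.16. Mt2, a metallothionein, rose from 1680.0 ± 225 (SD, n = 3) to 3612 ± 532 (SD, n = 3) in TNF and to 7038 ± 292 (SD, n = 3) in DEX, and Mt1 fell in CI (-0.51) and rose in DEX (0.98). Sod2, the mitochondrial superoxide dismutase, rose in TNF (0.42), and Sod3, the extracellular one, fell in DEX (-1.15). The CI count was 1 without CI replicate 2 and the TNF count was 2 without control replicate 2.

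**Figure D4:**
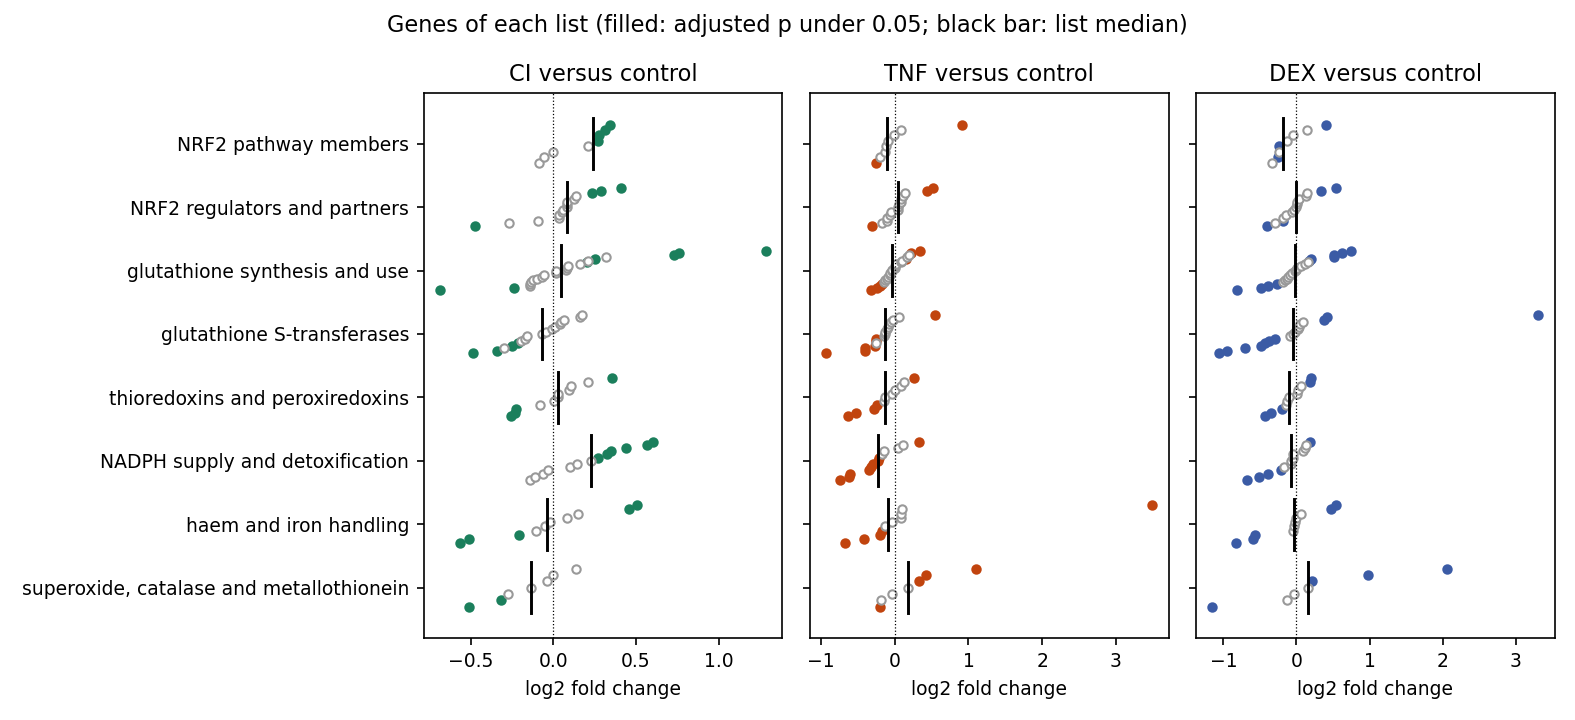
Log2 fold change against control (horizontal axes, with a scale of its own in each panel) of every gene tested in the 8 members and 7 other lists; filled points passed at an adjusted p under 0.05 and black bars are list medians. The median of the NADPH and detoxification list lies at 0.23 in CI and at -0.23 in TNF.

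The members did not follow 1 shared pattern over the 11 arrays. Pearson correlations of log2 values between members ran from -0.69 (Nfe2l2 and Gclc) to 0.83 (Hmox1 and Srxn1; Nfe2l2 and Txnrd1). They describe 4 groups of arrays and not independent samples. Of all genes tested, Slc7a1 (r = 0.98), Katna1 (0.97) and Zhx1 (0.96) were most like Nfe2l2, Psmd10 (0.98), Gla (0.98) and Prr13 (0.98) most like Nqo1, and Gatad1 (0.98), Vcp (0.95) and Slc13a3 (0.94) most like Srxn1. For Txnrd1 they were Ube2n (0.96), Pkm (0.96) and Ttll12 (0.95), and for Gclc Def8 (0.96), Mir205hg (0.96) and Igbp1b (0.95). The best matches were weaker for Keap1 (Dmgdh, 0.95), Hmox1 (Arhgap33, 0.93) and Gclm (M6pr, 0.90).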

How the data were processed

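Linear intensities of 45101 probe sets on 11 Affymetrix arrays were deposited by the authors; the background correction, summarisation and normalization are not given in the sources used here, and 0 columns of values lay outside the mapped samples. Between arrays the log2 quartiles were at most 0.0765 apart, under the limit of 0.1 set for normalizing, so none was applied. The manufacturer's 64 control probe sets were dropped. By the platform annotation 34945 probe sets had 1 symbol, 932 several and 9160 none; 34741 were matched to RefSeq by gene identifier, and 0 symbols changed. For each gene the probe set with the highest mean was kept, and those under the 25th percentile (an intensity of 51.8) were left out. Values were tested as log2(intensity + 16) in R 4.3.3 with limma 3.58.1 (a linear model with moderated variances, two-sided; 7 residual and 7.59 prior degrees of freedom), Benjamini-Hochberg adjusted over 15622 genes, and again over 33778 probe sets. The fit was tested on simulated data with changes added to the TNF group only, so it was not tested for changes in CI. The members and lists were chosen with earlier results of these data known. All members are named in each comparison; of other lists at most the 4 genes with the smallest adjusted p, and for each member the 3 genes most correlated with it. Alternatives changed the pseudocount, the dim filter, the scaling, the probe set rule, the arrays fitted and a replicate block, and left out each array in turn, which makes 20 per result; a lone CI array is then taken to have the spread of the remaining groups.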

Additional observations from a re-analysis of the deposited data

How the results depend on the processing

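Of 48 member differences tested, 23 passed; 8 of these held in all 20 alternatives, and 0 of the 23 changed sign. The members passing in CI against control were 2 in place of 4 with the mean of all probe sets, and 1 to 4 when 1 array was left out. In TNF against control they were 1 in place of 2 with a pseudocount of 1, without the dim filter and with median centring, and 1 to 3 when 1 array was left out. Counting only the brightest probe set of each gene, 1 also passed in the fit over every probe set, where a dimmer Srxn1 probe set passed. In DEX against control they were 3 to 5 when 1 array was left out, against 3. With the mean of all probe sets 2 passed in TNF against CI and 2 in TNF against DEX, in place of 4 and 4. All genes passing in CI against control were 2696, and 1431 (without CI replicate 1) to 3045 when 1 array was left out. Values near 0 that changed sign, none of which passed, were Gclc in CI with the mean of all probe sets (0.0192) or the replicate block (0.0410) and from -0.0889 to 0.10 without 1 array, Nfe2l2 in TNF with median centring (0.00956) and from -0.0595 to 0.0375 without 1 array, and Gclm in TNF against CI with median centring (0.00395) or the mean of all probe sets (0.0350) and from -0.22 to 0.16 without 1 array. Without 1 array Hmox1 in CI ran from -0.10 to 0.52, Gclm in CI from -0.28 to 0.10, Gclc in TNF from -0.16 to 0.00856 and Gclm in DEX against CI from -0.34 to 0.0398. The cause was not tested. Whether replicate numbers pair the arrays is not known. Deviations of same-numbered arrays from their group means correlated at -0.29 to 0.34 over 15 pairs of arrays (median 0.02, against -0.00 for other numbers). The 2 CI arrays deviate by equal and opposite amounts, so each value with CI recurs with the opposite sign. For numbers 1, 2 and 3 the values were 0.29, 0.01 and 0.34 between control and TNF. They were 0.28, 0.02 and 0.11 between control and DEX, and 0.22, -0.17 and 0.06 between TNF and DEX. With the replicate block 4, 2 and 3 members passed in CI, TNF and DEX against control, as without it, and 5, 6 and 3 in TNF against CI, DEX against CI and TNF against DEX, in place of 4, 6 and 4. Over all genes, TNF against control split into 2173 increases and 1758 decreases; median centring made this 2391 and 1383, and quantile normalization 1787 and 2077. Signal limits Txnrd1's dimmest probe set, near the limit of 51.8.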
